A study of Mus musculus with 12 samples.

Results

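The genes described here are 38 genes of cholesterol and fatty acid synthesis and of sterol handling, chosen by name for their known function. The choice was made with earlier results of these data known, so no test of the list as a whole was made. The array annotation listed a probe set for 35 of the 38. Acat2, Insig1 and Nr1h2 had no probe set listed, so no value is given for them, and Sc4mol was listed under its present symbol, Msmo1. The 35 genes fell into 5 roles: 6 genes of the mevalonate and isoprenoid steps, 11 genes of the sterol steps from squalene on, 4 SREBP regulators, 8 genes of fatty acid synthesis and desaturation, and 6 genes of sterol transport and LXR. They are a small share of the 22626 probe sets tested, which name 12393 genes.

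Cells build cholesterol from acetyl-CoA through mevalonate, isoprenoids, squalene and a series of sterol intermediates, and they build fatty acids from the same acetyl-CoA. Transcription factors of the SREBP family switch both routes on. When sterols are scarce the escort protein Scap carries SREBP from the endoplasmic reticulum to the Golgi, where it is cut and released, and Insig proteins hold it back when sterols are plentiful. The LXR receptors act on the other side, since they respond to oxidised sterols and turn on the exporters Abca1 and Abcg1. Dividing blood progenitors need both routes for new membrane.

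Expression was measured in RNA of Sca-1+Lin- mouse bone marrow cells that carried a retroviral vector with green fluorescent protein, GFP. The study asked which genes change early when primitive cells receive a NUP98-HOX fusion, a leukaemia-associated protein in which the nucleoporin NUP98 is joined to a HOX homeodomain. All 4 groups had 3 arrays each, numbered 1 to 3, from independent experiments: the GFP control (empty vector), ND13 (NUP98-HOXD13), NA10 (NUP98-HOXA10) and ND13(N51S), the form of ND13 with a homeodomain mutation that abolishes DNA binding. Donors in every group were PepC3 mice, the F1 of C57Bl/6Ly-Pep3b and C3H/HeJ, over 12 weeks old and given 150 mg/kg 5-fluorouracil 4 days before harvest. The marrow of every group was prestimulated for 48 hours with interleukin-6, interleukin-3 and stem cell factor, cocultured for 2 days with irradiated GP+E86 producer cells, cultured for another 24 hours, and sorted for GFP. The fusions are thus driven from a retroviral vector in a mixed progenitor population, and the values describe the sorted mixture. In such bulk RNA, fewer cells of a type and less RNA per cell cannot be told apart.

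The signals were scaled by the authors to a common mean, and 32 of the 35 genes lay above background on all 12 arrays. Background was set for each array at the level that 95% of its 27 probe sets for bacterial controls did not exceed, and it ranged over arrays from 28.5 to 69.8 on the linear signal scale. Log2 signals of replicate arrays correlated at 0.888 to 0.980 over the 35 genes, which are not independent replicates. Of the markers of primitive hematopoietic cells, 5 of 6 were listed and all 5 lay above background on all 12 arrays. Their summed signals were 11210 to 11610 in the GFP control and 10560 to 10950 in ND13. They were 10770 to 12940 in NA10 and 11450 to 13950 in ND13(N51S). Ly6a, which encodes the sorted antigen Sca-1, was the marker not listed. For 2 arrays the label or the RNA is in doubt, and both were kept. The GFP control replicate 1 has an experiment record that names GFP-negative cells of an ND13(N51S) culture, against its label, and the label was followed. ND13(N51S) replicate 2 had a Gapdh 3′ to 5′ ratio of 48.9, against 1.90 to 2.71 on the other 11 arrays, and an actin ratio of 9.09 against 1.72 to 2.38. A high ratio means that the 5′ parts of transcripts gave little signal.

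That array mattered for these genes. ND13(N51S) replicate 2 gave the lowest of all 12 values for 13 of the 35 genes (37.1%), against 17.0% of all probe sets and 22.6% of the probe sets above background on all arrays. The 13 were Mvk, Mvd, Idi1, Fdps, Fdft1, Tm7sf2, Sc4mol, Nsdhl, Ebp, Scap, Acaca, Fasn and Fads2, and they came from all roles but sterol transport. The same array gave the highest value for 5 genes: Hmgcs1, Sqle, Cyp51, Hsd17b7 and Acly. The main differences that involve ND13(N51S) are therefore given below with and without it. Values of probe sets not chosen to stand for a gene are given with all arrays only.

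**Figure D1:**
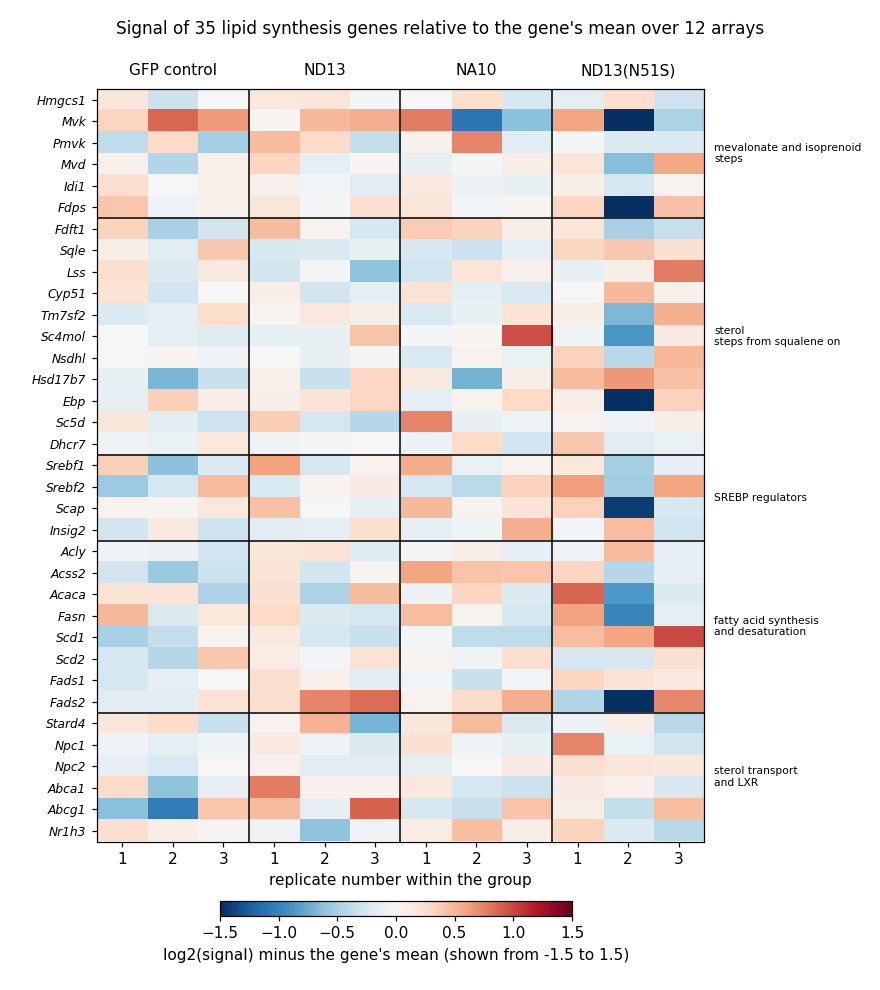
Each row is 1 of the 35 genes, grouped by role, and each column 1 of the 12 arrays, with the replicate number below and the group above; colour is log2 signal minus the gene's mean over the 12 arrays, shown from -1.5 to 1.5. No block of rows shares a colour across a whole group, while the second ND13(N51S) column is dark blue for several genes, such as Fads2 and Ebp.

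By median difference, signals of these genes in cells with a fusion lay close to those of the GFP control. In limma's test, with p-values adjusted by the method of Benjamini and Hochberg, a gene was called at an adjusted p below 0.05 with at least a 1.5-fold change, and 0 of the 35 were called in any of the 6 comparisons. For ND13 against the GFP control the background was 0.0884% of probe sets called and the smallest adjusted p among the 35 genes was 0.848. For NA10 against the GFP control the background was 0.0133% and the smallest adjusted p was 0.713. For ND13(N51S) against the GFP control the background was 0% and the smallest adjusted p was 0.42. Calls were rare on the whole array, so a count of 0 among 35 genes is near the background. The methods' t-test after the same adjustment also called 0 of the 35 in each comparison.

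The size of the changes is the better guide. Over the 35 genes, the median log2 fold change against the GFP control was 0.10 in the ND13 arrays, 0.09 in those of NA10 and 0.055 in those of the mutant, beside 0, -0.01 and 0.07 for all probe sets. Without ND13(N51S) replicate 2 the mutant's median was 0.165, and the median of all probe sets was not worked out for that fit. With all arrays these medians are below the SD of 0.132 that the genes' median deviation showed between replicate arrays. That SD includes ND13(N51S) replicate 2, where the median deviation was -0.244, against 0.185 in ND13(N51S) replicate 1 and 0.068 in ND13(N51S) replicate 3. The SD was not worked out without that array. Whether the ND13 and NA10 medians lie below the spread of the remaining arrays was therefore not tested. The median size of a gene's log2 difference from the GFP control, whatever its direction, was 0.17 in ND13, 0.11 in NA10 and 0.21 in ND13(N51S) cells, beside 0.19, 0.16 and 0.23 for the probe sets above background on all arrays. The 95% confidence interval of the fold change lay wholly within 2-fold either way for 27 of the 35 genes in ND13, 26 in NA10 and 23 in ND13(N51S). Among the probe sets above background on all arrays, 70.3%, 72.7% and 65% had intervals that narrow. For most of the genes, then, a change of 2-fold against the GFP control lies outside the interval, and for the others it does not. The interval lay wholly within 1.5-fold for only 6 genes in ND13, 9 in NA10 and 6 in ND13(N51S). For most genes a change of 1.5-fold is therefore not excluded.

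Counts at the looser threshold that the methods used, an unadjusted p below 0.05 with a 1.5-fold change, were near the background. Against the GFP control, ND13 had 1 gene higher, Abcg1, and 0 lower, against 3.43% of all probe sets higher and 1.5% lower. NA10 had 1 gene higher, Acss2, and 0 lower, against a background of 2.51% and 1.52%. ND13(N51S) had 2 genes higher, Hsd17b7 and Scd1, and 0 lower, against 4.37% and 2.48%. Without the size threshold, the number of genes with an unadjusted p below 0.05 was 1, 1 and 3, the additional gene being Npc2. Of all probe sets, 5.73%, 4.41% and 7.65% had such a p, so these counts too were near the background.

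**Figure D2:**
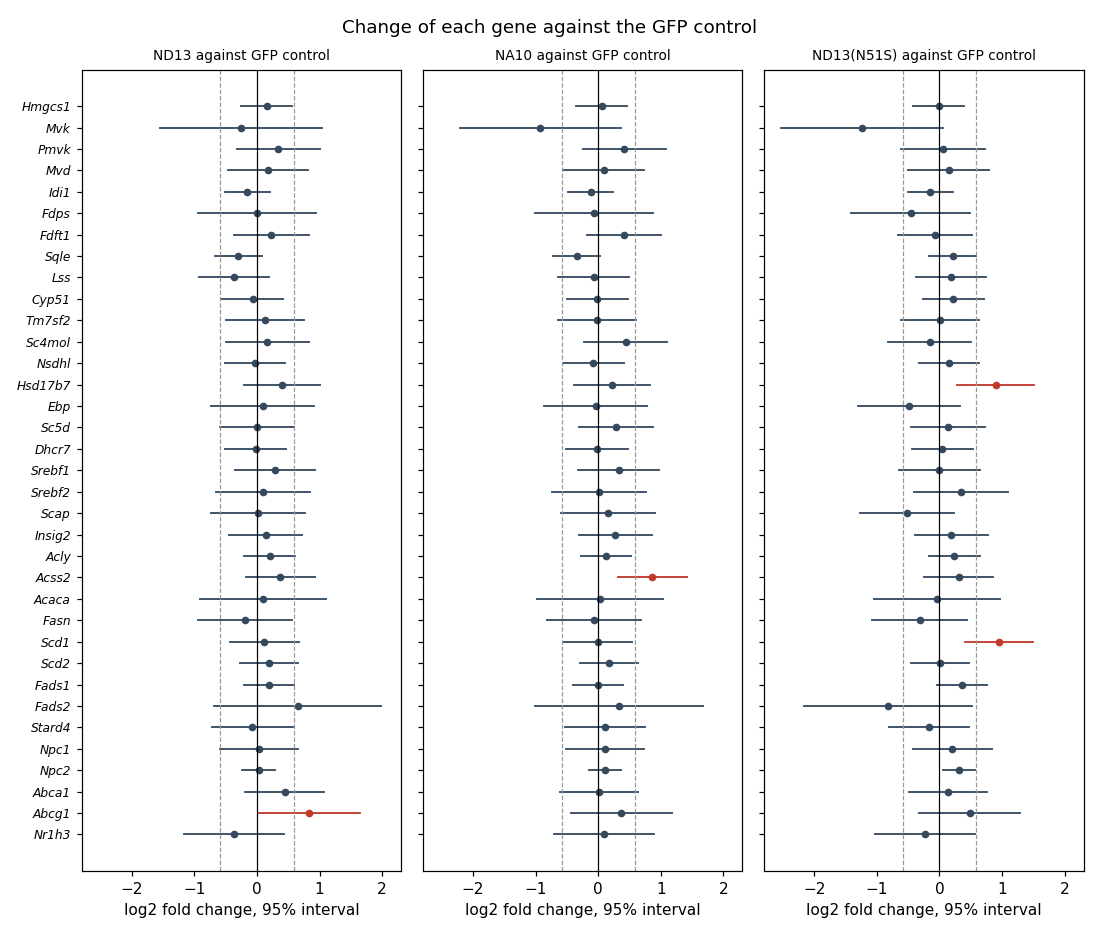
Points are the log2 fold change of each gene against the GFP control and lines are 95% intervals from limma, 1 panel per construct; dashed lines mark 1.5-fold and red marks genes past the unadjusted threshold. Most points sit within the dashed lines, and the red genes are Abcg1 in ND13, Acss2 in NA10, and Hsd17b7 and Scd1 in ND13(N51S).

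Against the mutant the picture was similar. For ND13 against ND13(N51S), 0 genes were called beside 0.0133% of probe sets, and 1 gene was higher (Fads2) and 1 lower (Scd1) at the unadjusted threshold, beside 3.2% and 3.78%. For NA10 against ND13(N51S), 0 genes were called beside 0.00884%, and 0 genes were higher and 2 lower (Scd1 and Hsd17b7), beside 2.94% and 4.85%. Between the 2 active fusions, ND13 against NA10, 0 genes were called beside 0.0177%, and 0 genes passed the unadjusted threshold in either direction, beside 1.98% and 1.34%. The smallest adjusted p among the 35 genes was 0.433, 0.344 and 1 in these 3 comparisons, and 4, 4 and 0 genes had an unadjusted p below 0.05. Of all probe sets, 7.87%, 8.6% and 3.52% had such a p. The median log2 difference of the 35 genes was 0.06 for ND13 and 0.07 for NA10 against the mutant, beside -0.06 and -0.075 for all probe sets, and 0.015 between the active fusions, beside 0.01. Without ND13(N51S) replicate 2 the first 2 medians turned to -0.14 and -0.15. The medians of all probe sets were not worked out without that array, so a shift particular to these genes is not shown. The 5 comparisons with the GFP control or the mutant share arrays with each other, so a group that stands apart recurs in several of them.

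The mevalonate and isoprenoid steps turn acetyl-CoA units into the isoprenoid building block of sterols. None of the 6 genes passed the unadjusted threshold in any comparison, and their median log2 fold change was 0.08 in ND13, -0.005 in NA10 and -0.08 in ND13(N51S) against the GFP control, the last being 0.025 without ND13(N51S) replicate 2. Hmgcs1, the synthase that condenses acetoacetyl-CoA with acetyl-CoA, stood for the entry to the route. Its signal was 5107, 3632 and 4501 in GFP control replicates 1 to 3, and 5052, 5154 and 4447 in ND13. It was 4559, 5372 and 3839 in NA10, and 4128, 5410 and 3652 in ND13(N51S). All 4 groups overlapped. Against the GFP control, ND13 was at a log2 fold change of 0.16 (95% interval -0.25 to 0.57), NA10 at 0.06 (-0.35 to 0.47) and ND13(N51S) at -0.01 (-0.42 to 0.40), the last being -0.17 without its replicate 2. Another 3 probe sets name Hmgcs1. With all arrays their values for ND13(N51S) against the GFP control were -0.58, -0.43 and -0.53, with the active fusions between -0.21 and 0. Of the other genes, Mvk (mevalonate kinase) had the lowest value, a log2 fold change of -1.24 in ND13(N51S), where its signal was 142.6, 23.0 and 68.2, the lowest in the array with the high 3′ to 5′ ratios. Without that array the value for Mvk was -0.545 (unadjusted p 0.31). Fdps, the farnesyl diphosphate synthase, was at 150.6 on that array and at 482 to 692 on the other 11, so that its value for the mutant against the GFP control, -0.46, was 0.25 without it.

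Promoter sequence adds a feature that the choice of genes did not use. RefSeq promoter windows of 300 bases (GRCm38.p6, 250 before the start to 50 after it) were given for 26 of the 35 genes, 35 windows in all. The sterol regulatory element, searched only as TCACNCCAC on both strands, was found in 1 of the 26 genes, Hmgcs1. That was 2.86% of these genes' windows, beside 1.24% of all 32851 windows. Variants of these letters were not searched, so a window without a match may still hold a variant. The box CCAAT, bound by NF-Y, was in 62.9% of these genes' windows and in 37.4% of all windows, and GGGCGG, bound by Sp1, in 74.3% and 35.7%. Both factors are known to assist SREBP. A match describes the sequence alone. The sterol element and the CCAAT boxes printed here do not overlap. The 250 bases before the start of Hmgcs1 are shown because they hold that element, at chr13:119690101-119690350 on the plus strand. Those of Acss2 (chr2:155517793-155518042, plus strand) and Hsd17b7 (chr1:169969206-169969455, minus strand) are shown because these genes, described below, passed the unadjusted threshold against the GFP control in groups that did not overlap. Each is given 5′ to 3′ on the gene's strand, and capitals mark the sterol element and the box CCAAT or its reverse complement ATTGG.
Hmgcs1: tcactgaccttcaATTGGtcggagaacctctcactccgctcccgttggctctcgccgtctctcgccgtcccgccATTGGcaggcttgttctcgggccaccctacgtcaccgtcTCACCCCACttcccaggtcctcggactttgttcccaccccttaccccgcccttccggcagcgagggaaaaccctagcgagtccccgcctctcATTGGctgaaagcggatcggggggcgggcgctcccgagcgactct
Acss2: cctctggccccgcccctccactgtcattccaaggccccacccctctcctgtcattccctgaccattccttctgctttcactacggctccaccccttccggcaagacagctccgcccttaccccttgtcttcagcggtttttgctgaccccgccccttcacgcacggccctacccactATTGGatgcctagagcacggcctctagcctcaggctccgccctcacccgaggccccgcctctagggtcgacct
Hsd17b7: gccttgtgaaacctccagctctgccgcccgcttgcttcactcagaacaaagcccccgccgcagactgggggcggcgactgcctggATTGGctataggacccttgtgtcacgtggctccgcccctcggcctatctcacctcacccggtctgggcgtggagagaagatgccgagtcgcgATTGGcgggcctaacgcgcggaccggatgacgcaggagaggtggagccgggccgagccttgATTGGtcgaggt
In Hmgcs1 the sterol element, read as TCACCCCAC, began 137 bases before the start. The CCAAT box occurred in all 3 of these windows, 1 time in that of Acss2 and 3 times in that of Hsd17b7. No window was listed for Fdps, Fdft1, Sqle, Scd1, Scd2, Fads1, Stard4, Npc1 and Abcg1.

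From squalene on, 11 genes build the sterol rings and trim the side groups. Their median log2 fold change against the GFP control was -0.004 in ND13, -0.02 in NA10 and 0.13 in ND13(N51S). Sqle, the squalene epoxidase and a controlling step of the route, was measured by 1 probe set on chromosome 15. Its signal was 2113, 1782 and 2635 in the GFP control, 1690, 1719 and 1843 in ND13, 1680, 1591 and 1821 in NA10, and 2488, 2649 and 2334 in ND13(N51S). Every array of both active fusions lay below every array of the mutant, while the GFP control overlapped both. The log2 difference was -0.51 (SE 0.173, unadjusted p 0.0112, adjusted p 0.508 with limma) for ND13 and -0.55 (unadjusted p 0.00672, adjusted p 0.404) for NA10 against the mutant. Both are under 1.5-fold. Without ND13(N51S) replicate 2, which held the highest value, they were -0.46 and -0.51. Against the GFP control the values were -0.30 for ND13 and -0.34 for NA10, with adjusted p of 0.97 and 1.

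Hsd17b7, which encodes a 3-keto sterol reductase, was highest in the mutant. Its signal was 222.5, 149.4 and 191.9 in the GFP control, 253.7, 191.5 and 299.1 in ND13, 266.7, 147.9 and 256 in NA10, and 335.2, 377 and 326.3 in ND13(N51S). The mutant's arrays lay above those of the other 3 groups, which overlapped with each other. The log2 fold change of the mutant against the GFP control was 0.90 (SE 0.283, unadjusted p 0.00718, adjusted p 0.505 with limma), and NA10 was lower than the mutant by value, at -0.68. Another probe set of the gene went the other way, at -0.94 for the mutant against the GFP control, and the mean of both was -0.02. The difference thus rests on which probe set stands for Hsd17b7. Without ND13(N51S) replicate 2 the mutant's value against the GFP control was 0.835 and that of NA10 against the mutant was -0.61 (unadjusted p 0.0722). Cyp51, the lanosterol demethylase, and Lss, the lanosterol synthase, had log2 fold changes between -0.36 and 0.22 against the GFP control in all 3 constructs on the probe sets used, and Dhcr7, which makes cholesterol from its last precursor, lay between -0.02 and 0.045. Another 2 probe sets of Lss were lower in ND13, at -1.36 (unadjusted p 0.0358) and -0.90 (unadjusted p 0.0759), and they lay above background on 8 and 11 of the 12 arrays. Of the 32 probe sets of these genes that were not used, 4 passed the unadjusted threshold in at least 1 comparison, and they belong to Hsd17b7, Lss, Sc5d and Scd2. The share of all probe sets past it in at least 1 comparison was not counted. The count of 4 therefore cannot be read as particular to these genes.

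The SREBP regulators decide how much of the factor reaches the nucleus. With all arrays none of the 4 listed passed the unadjusted threshold in any comparison, and their median against the GFP control was 0.12 in ND13, 0.22 in NA10 and 0.095 in ND13(N51S). Srebf1 encodes the form that favours fatty acid genes. Its signal was 1221, 625.4 and 827.6 in the GFP control, 1447, 801.2 and 989.7 in ND13, 1404, 892.8 and 993.2 in NA10, and 1068, 676 and 873.6 in ND13(N51S). The groups overlapped throughout, but replicate 1 was the highest and replicate 2 the lowest in every group. Against the GFP control its log2 fold change was 0.29 (-0.36 to 0.93) in ND13, 0.33 (-0.32 to 0.97) in NA10 and -0.001 (-0.645 to 0.643) in ND13(N51S).

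Srebf2 encodes the form that favours sterol genes. Its signal was 229.6, 278.8 and 464.4 in the GFP control, 287.1, 348.4 and 366 in ND13, 281.4, 253.6 and 425.9 in NA10, and 516, 234.4 and 506.7 in ND13(N51S). Here replicate 3 was the highest array of 3 groups, and in ND13(N51S) the second replicate lay below the other 2. Its log2 fold change was 0.10 in ND13, 0.01 in NA10 and 0.35 in ND13(N51S). Without ND13(N51S) replicate 2 the mutant's value was 0.72 (unadjusted p 0.0372, adjusted p 0.708 with limma), past the unadjusted threshold. With all arrays another probe set of the gene gave 0.49, 0.38 and -0.62, so the mutant's direction differs between the 2 probe sets there. That probe set was not fitted without ND13(N51S) replicate 2. Scap was at 319.2 in ND13(N51S) replicate 2 and at 729 to 1206 elsewhere, and its value for the mutant, -0.52, was -0.03 without that array. Insig2, the other Insig protein, had log2 fold changes of 0.14, 0.27 and 0.19.

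Of the genes of fatty acid synthesis and desaturation, 1 was past the unadjusted threshold against the GFP control in NA10 and 1 in the mutant. Acss2, the cytosolic enzyme that makes acetyl-CoA from acetate, was highest in NA10. Its signal was 158.3, 131 and 153.7 in the GFP control, 218.8, 158.9 and 197.5 in ND13, 290.4, 257.7 and 255.6 in NA10, and 239.3, 142.3 and 177 in ND13(N51S). Every NA10 array lay above all 9 others, and every ND13 array lay above the GFP control. The log2 fold change of NA10 against the GFP control was 0.86 (SE 0.256, unadjusted p 0.00479, adjusted p 0.713 with limma), a 1.82-fold difference that the adjusted test did not call. Its other probe set gave the same value, 0.86 (unadjusted p 0.066). Within each replicate number NA10 exceeded the GFP control by 1.83-, 1.97- and 1.66-fold. For ND13 the log2 fold change was 0.37 (-0.18 to 0.92), and the difference between ND13 and NA10 was -0.49 (-1.04 to 0.06).

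Scd1, a stearoyl-CoA desaturase that makes monounsaturated fatty acids, stood out in the mutant. Its signal was 166.1, 180.8 and 239.9 in the GFP control, 257.2, 194.2 and 184.2 in ND13, 226.9, 178.8 and 177.9 in NA10, and 320.2, 349.7 and 460.2 in ND13(N51S). The mutant's 3 arrays lay above all 9 others, which overlapped with each other. The log2 fold change of ND13(N51S) against the GFP control was 0.95 (SE 0.253, unadjusted p 0.00237, adjusted p 0.42 with limma), and within replicate numbers the ratio was 1.93, 1.93 and 1.92. ND13 differed from the mutant by -0.83 (adjusted p 0.433) and NA10 by -0.945 (adjusted p 0.344). Without ND13(N51S) replicate 2 the 3 values were 0.99, -0.87 and -0.99. The other probe set of Scd1 gave 0.51 for the mutant against the GFP control. Scd1 had the smallest unadjusted p of the 35 genes in the comparison of the mutant with the GFP control, and the adjusted test did not call it.

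Scd2, the related desaturase, did not share that pattern by value. Its signal was 3223, 2869 and 5101 in the GFP control, 4160, 3741 and 4471 in ND13, 3951, 3721 and 4588 in NA10, and 3222, 3247 and 4524 in ND13(N51S). The groups overlapped, and replicate 3 was the highest array of each. Against the GFP control it was at a log2 fold change of 0.19 in ND13, 0.17 in NA10 and 0.002 in ND13(N51S), and 2 further probe sets gave -0.53 and -0.90 for the mutant. The probe set at -0.90 was higher in the active fusions than in the mutant, by 1.28 for ND13 (unadjusted p 0.0183) and 1.38 for NA10 (unadjusted p 0.012). With all arrays the probe sets of Scd2 thus disagree, and the further ones were not fitted without ND13(N51S) replicate 2.

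Fasn, the fatty acid synthase, lay near its control level in both active fusions. Its signal was 1673, 1026 and 1337 in the GFP control, 1469, 1035 and 1003 in ND13, 1640, 1237 and 991.6 in NA10, and 1816, 599.5 and 1088 in ND13(N51S). Replicate 1 was the highest array of every group. On the log2 scale the difference from the GFP control was -0.20 (-0.95 to 0.56) in ND13, -0.06 (-0.82 to 0.69) in NA10 and -0.32 (-1.07 to 0.435) in ND13(N51S), the last being 0.09 without the mutant's replicate 2. Acly, which makes cytosolic acetyl-CoA from citrate, had log2 fold changes of 0.12 to 0.235.

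Fads2, a fatty acid desaturase of polyunsaturated chains, was higher in ND13 than in the mutant by a log2 difference of 1.47 (SE 0.62, unadjusted p 0.0333, adjusted p 0.601 with limma). Its signal was 633.8, 884.2 and 948.8 in ND13, 391, 73 and 875 in the mutant, 549.1, 644 and 773.9 in NA10, and 472.3, 471.8 and 618 in the GFP control. ND13 and the mutant overlapped, and the value of 73 came from ND13(N51S) replicate 2. Without that array the difference was 0.47. ND13 lay above the GFP control on every array, with a log2 fold change of 0.65 (-0.686 to 1.985).

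The 6 genes of sterol transport and LXR had a median log2 fold change of 0.03 in ND13, 0.105 in NA10 and 0.17 in ND13(N51S) against the GFP control. Abcg1, a sterol exporter and LXR target, was the gene past the unadjusted threshold in ND13. Its signal was 680.5, 509.6 and 1404 in the GFP control, 1464, 969 and 1940 in ND13, 889.9, 831.8 and 1419 in NA10, and 1116, 820.2 and 1454 in ND13(N51S). Groups overlapped because replicate 3 was far above the others in each, yet within every replicate number ND13 was higher than the GFP control, by 2.15-, 1.90- and 1.38-fold. This was not particular to ND13, since the ratios were 1.31, 1.63 and 1.01 in NA10 and 1.64, 1.61 and 1.04 in the mutant. For ND13 the log2 fold change was 0.83 (SE 0.375, unadjusted p 0.0443, adjusted p 0.848 with limma). With the replicate number as a block in the limma fit, the unadjusted p was 0.000501 and the adjusted p 0.097. The log2 fold change against the GFP control was 0.37 in NA10 and 0.48 in ND13(N51S). With the block in limma these had unadjusted p of 0.0574 and 0.0177, and adjusted p of 0.789 and 0.357. ND13 differed from the mutant by 0.35 (unadjusted p 0.368 with limma, without the block). Without both arrays in doubt the value for ND13 was 0.73 (unadjusted p 0.105).

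Abca1, the other exporter, was measured at 298.6, 161.3 and 225.4 in the GFP control, 415.9, 255.5 and 255 in ND13, 272.8, 205.7 and 196.1 in NA10, and 266.8, 257.9 and 207 in ND13(N51S). The groups overlapped, and replicate 1 was the highest in each. The log2 fold change was 0.44 (-0.185 to 1.064) in ND13, 0.01 in NA10 and 0.13 in ND13(N51S), and another probe set gave -0.31 for ND13. Npc2, which hands cholesterol out of the lysosome, had a log2 difference of 0.31 in the mutant against the GFP control and -0.29 in ND13 against the mutant, with unadjusted p below the 0.05 limit and adjusted p of 0.615 and 0.602. Another probe set of Npc2 gave 0.05 (unadjusted p 0.77) and -0.04 (unadjusted p 0.774), and leaving out ND13(N51S) replicate 2 left the first at 0.32 and -0.29. Nr1h3, which encodes LXR alpha, was near background, with signals of 46.8 to 97.3.

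The one test that any of these genes passed after adjustment was that of the replicate number. In a fit with group and replicate number as terms, a limma F-test of the number passed an adjusted p of 0.05 for 3 of the 35 genes, Abcg1, Srebf1 and Stard4, beside 5.22% of all probe sets. The F-test of the construct in the same fit passed for 0 of 35, beside 0.168% of all probe sets, and 6 of 35 had an unadjusted p below 0.05, against 10.7% of all probe sets. The F statistic was larger for the number than for the construct in 25 of the 35 genes and in 56% of all probe sets. This test was added after the values had been seen, and with plain eBayes, which does not let the variance follow the signal, 0 of the 35 passed, with adjusted p of 0.0818, 0.0833 and 0.124 for Abcg1, Srebf1 and Stard4.

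The 3 genes had different orders. Abcg1 had geometric means of 997, 762 and 1539 over the 4 groups in replicates 1, 2 and 3 (adjusted p 0.00784), with replicate 3 highest in 4 of 4 groups. Srebf1 had 1276, 742 and 918 (adjusted p 0.0114), with replicate 1 highest in 4 of 4. Stard4, a carrier of sterol between membranes and a known SREBP target, had 1588, 1912 and 1129 (adjusted p 0.0175). Its signal was 1691, 1823 and 1193 in the GFP control, 1563, 2166 and 926.2 in ND13, 1694, 2094 and 1298 in NA10, and 1422, 1615 and 1132 in ND13(N51S). Replicate 2 was highest and replicate 3 lowest in all 4 groups, and the groups overlapped. Replicate 1 was also the highest array in each of the 4 groups for Fasn, Idi1, Fdft1, Abca1 and Acss2, and replicate 3 for Scd2 and Fads2, without passing the adjusted test. The labels do not say what the numbers stand for beyond separate experiments.

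**Figure D3:**
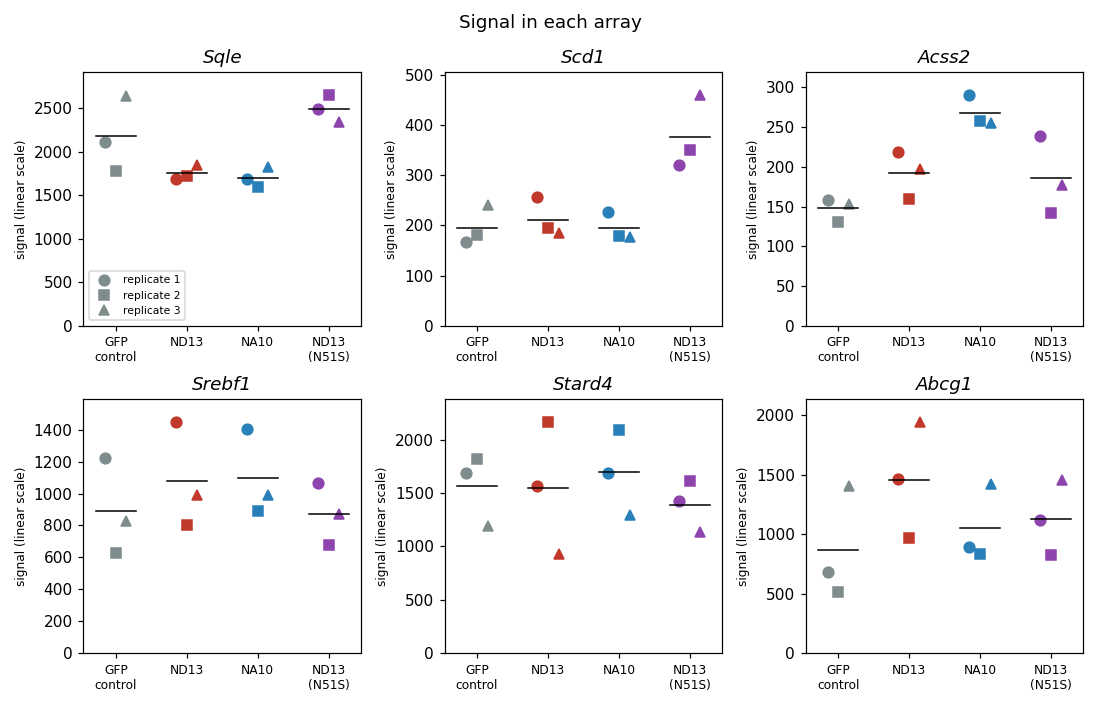
Signal on the linear scale in each array for 6 genes; circles, squares and triangles are replicates 1, 2 and 3, and black lines are group means. Sqle is lower in both active fusions than in ND13(N51S), Scd1 is highest in ND13(N51S) and Acss2 in NA10, whereas Srebf1, Stard4 and Abcg1 repeat one order of replicate numbers in each group.

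Of 25 other genes of lipid synthesis, 19 had a probe set, and 0 were called in any comparison. At the unadjusted threshold 1 was higher and 0 lower in ND13, 2 and 0 in NA10, and 3 and 0 in ND13(N51S) against the GFP control. Of all probe sets, 3.43%, 2.51% and 4.37% were higher and 1.5%, 1.52% and 2.48% lower. The median log2 fold change of the 19 was -0.02, 0.004 and 0.22, beside 0, -0.01 and 0.07 for all probe sets. Lpin1, a phosphatidate phosphatase of glycerolipid synthesis, had log2 fold changes of 1.19 in ND13 (unadjusted p 0.000902, adjusted p 0.246 with limma), 0.63 in NA10 and 0.79 in the mutant. Ch25h, which makes the LXR ligand 25-hydroxycholesterol, had 1.75 in NA10 and 1.725 in the mutant, from a mean signal of 37.1 in the GFP control, which is within the range of background. Lipa, the lysosomal acid lipase, had 0.945 in the mutant. Against the mutant, Abca7 was at 0.91 in ND13 and Me1, the cytosolic malic enzyme, at -0.66 in NA10, each with an adjusted p of at least 0.497.

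Markers of other cell types differed by value between the same groups. Summed macrophage markers (8 of 8 listed) ran from 3926 to 8407 in the GFP control, 8185 to 10160 in ND13, 5476 to 6245 in NA10 and 7051 to 12530 in ND13(N51S). Against the GFP control, 4, 3 and 3 of the 8 were higher and 0 lower at the unadjusted threshold in ND13, NA10 and ND13(N51S). The shares of all probe sets that were higher were 3.43%, 2.51% and 4.37%. Marco lay above background on 1 array and the other 7 on all 12. Abcg1 and Abca1 are highly expressed in macrophages, and the part of these cells in the ND13 values was not tested. Summed markers of mast cells and basophils (4 of 4 listed) ran from 2050 to 3213 in the GFP control and 2717 to 3275 in ND13. They ran from 2551 to 4251 in NA10 and 4031 to 6511 in ND13(N51S). In the mutant 2 of the 4 were higher than in the GFP control at the unadjusted threshold, beside 4.37% of all probe sets, and 0 lower. Cpa3, a mast cell protease, was at 1.39 in the mutant, while Mcpt8, a basophil protease, overlapped between these 2 groups. Tpsb2 was at 64.95, 17.79 and 12.58 in the mutant and at 54.41, 47.99 and 58.91 in the GFP control. Fibroblast markers, which the producer cells would carry, summed to 624 to 1452, 723 to 794, 843 to 1072 and 1115 to 1959 in the same order. Granulocyte markers summed to 16330 to 20190, 7420 to 21460, 10770 to 20980 and 15260 to 24970 in that order. Erythroid markers summed to 337 to 374, 298 to 375, 175 to 401 and 461 to 491, so the mutant lay above the other groups by value. Of these 4 markers, 1 was below background on all arrays, and 0 passed the unadjusted threshold in the mutant against the GFP control. Of the 5 primitive markers, 2 were lower in ND13 than in the mutant at that threshold and 0 higher, beside 3.78% and 3.2% of all probe sets. The part of any of these cells in the Scd1, Sqle and Hsd17b7 values of the mutant was not tested.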

How the data were processed

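The authors hybridised amplified RNA to MOE430A arrays, and the deposited values are signal intensities on a linear scale that MAS5 made, per the labels, for 22690 probe sets, with 12 arrays in 4 groups of 3. The GC-RMA values of the study were not used here. Of the 22690, 64 control probe sets were left out. Signals were floored at 0.01 and taken as log2 values, with neither a filter nor further scaling, since the means trimmed by 2% at each end were 500.2 on all arrays. The number of arrays limits the precision.

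Groups followed the labels. Probe sets were tested with limma 3.58.1 in R 4.3.3 (lmFit and eBayes with trend and robust settings) in 1 fit of all 12 arrays, and p-values were adjusted over all 22626 probe sets of a comparison. The fit was tested on simulated data. The probe set with the highest mean log2 signal stands for a gene; 20380 probe sets named 1 gene, 691 several and 1555 none. The genes and lists were chosen with earlier results of these data known. Given with every array were genes past the unadjusted threshold whose groups did not overlap, and Hmgcs1, Sqle, Srebf1, Srebf2, Fasn, Scd1, Scd2 and Abca1, with Insig1 had it been listed. Abcg1, Fads2 and Stard4 were added after their values were seen. Alternatives were a pseudocount of 32, a filter on dim probe sets, quantile normalization, median centring, the replicate number as a block, fits of 2 groups, the methods' t-test, plain eBayes, averaged probe sets, and arrays left out singly or as the pair in doubt. The F-tests and their alternatives were chosen after seeing the data. Promoter sequences are from RefSeq, GRCm38.p6. Plots used Python 3.11.15 and matplotlib 3.10.9.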

Additional observations from a re-analysis of the deposited data

How the results depend on the processing

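No alternative called any of the 35 genes, and for the genes with an unadjusted p below 0.05, 285 of 286 values kept their direction. The exception was Hsd17b7 for ND13(N51S) against the GFP control, at -0.023 with probe sets averaged. Counts at the unadjusted threshold moved more. The share of all probe sets past it was not counted under each alternative, so these moves cannot be read as particular to these genes. For ND13 against the GFP control, 1 gene became 0 with median centring, with plain eBayes and without both arrays in doubt, and 2 with averaged probe sets. For NA10 against the GFP control it became 2 without both arrays. For ND13(N51S) against the GFP control, 2 became 1 with averaged probe sets and 3 with quantile normalization, median centring or the replicate block. For ND13 against ND13(N51S), 2 became 1 with 2 groups only, the methods' t-test or plain eBayes, and 3 with quantile normalization or averaged probe sets. For NA10 against ND13(N51S), 2 became 4 with median centring or the replicate block, and 1 with 2 groups only or the methods' t-test. Without both arrays in doubt the medians of the genes were 0.263 for ND13(N51S) against the GFP control, -0.143 for ND13 against ND13(N51S) and -0.154 for NA10 against ND13(N51S), and leaving out ND13(N51S) replicate 2 alone gave the last 2 values as well, which turns their direction. The medians of all probe sets were not worked out for these fits, and the cause of these moves was not tested.

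With each array left out in turn, counts at the unadjusted threshold ran from 0 to 2, 1 to 2, 2 to 5, 1 to 5 and 1 to 6 in the first 5 comparisons and stayed at 0 for ND13 against NA10, and the medians ran from 0.024 to 0.127, 0.052 to 0.144, -0.001 to 0.165, -0.143 to 0.114, -0.154 to 0.089 and -0.031 to 0.055. The single gene of ND13 against the GFP control, Abcg1, was joined by another gene without ND13(N51S) replicate 2 and was lost without GFP control replicate 1 or 2, ND13 replicate 1 or 3, NA10 replicate 1 or 2, or ND13(N51S) replicate 1. Over all 12 omissions its log2 fold change ran from 0.52 to 1.25. The count for NA10 against the GFP control was 2 without GFP control replicate 1 or 3 or NA10 replicate 1. Among comparisons with the mutant, omitting its replicate 1 or 3 gave the counts of 4 to 6, and omitting ND13 replicate 3 or NA10 replicate 2 gave 1. For these omissions too, the share of all probe sets past the threshold was not counted.

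The F-test of the replicate number passed for 5 genes with quantile normalization, beside 6.07% of all probe sets. With dim probe sets left out it passed for 5 of the 32 genes kept, beside 13.7%. It passed for 6 without both arrays in doubt, beside 8.98%, and for 0 with plain eBayes, beside 0.548%. With each array left out it passed for 2 to 6, beside 1.31% to 10.2% of all probe sets. Both the 6 and the 10.2% were without ND13(N51S) replicate 2, so the counts moved along with the whole array. Between groups, deviations of arrays with the same replicate number correlated at 0.0308 to 0.156 over all probe sets, against -0.105 to 0.025 for different numbers. Over those above the median mean the values were 0.106 to 0.596, against -0.422 to 0.107. Among arrays of other groups, all 12 arrays correlated best with an array that shared their number. Every pair was above 0.1 over the brighter probe sets and not over all of them. Arrays with the same number thus went together, and what they share was not settled, since the labels do not say it. The fit without the block was kept, and it leaves this likeness out of account. With the replicate block the smallest adjusted p of the 35 genes was 0.097, for Abcg1 in ND13 against the GFP control, and 0.189 or more in the other comparisons. Signals near background limit Nr1h3, Mvk and Acaca, the genes not above it on every array.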
